A study of Mus musculus with 10 samples.

Results

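Libraries of cells sorted as haematopoietic stem cells from mouse bone marrow contained large and very uneven amounts of RNA for the proteins of bone matrix. These transcripts are described here across 10 libraries, and which cells they came from was not tested. The 9 genes are Col1a1, Col1a2, Bglap, Bglap2, Sparc, Ibsp, Spp1, Dcn and Lum, found by symbol among the 52097 genes of the deposited table. They were chosen by symbol with their levels, group differences and covariation in these libraries already known, so those values are given as a description, with no test. About 5000 cells per sample were sorted as Lin-, Sca-1+, c-Kit+, CD48- and CD150+, and their RNA was copied and amplified with the Smart-Seq V4 kit for low inputs. The 5 control samples carry the title Dhx16_fl and the genotype WT, and the 5 knockout samples carry the title Dhx16_CKO and the genotype KO. All 10 came from bone marrow primary cells, and the question of the study was what Dhx16, which encodes a helicase that acts in splicing, does in these cells. The labels give no strain, age, sex, Cre driver or number of animals per sample, so a p-value here reflects the spread among these samples, which may be technical. The library columns are called WT2 to WT6 and CKO7, CKO8, CKO9, CKO12 and CKO13, and they could be tied to a genotype but not to a titled sample.

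Bone matrix is laid down by osteoblasts on the inner bone surface that faces the marrow. It is mostly type I collagen, a triple helix of Col1a1 and Col1a2 chains, which is secreted as procollagen, trimmed, crosslinked and then filled with mineral. Osteocalcin, encoded by Bglap and its neighbour copy Bglap2, osteonectin (Sparc), bone sialoprotein (Ibsp) and osteopontin (Spp1) bind calcium, mineral or collagen, and the small proteoglycans decorin (Dcn) and lumican (Lum) coat collagen fibrils. Type I collagen and osteocalcin are used as marker products of bone-forming cells. Spp1 is made by macrophages and other cells as well as by osteoblasts, and Sparc is also made by megakaryocytes and endothelial cells.

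Both osteocalcin genes lie on chromosome 3 (mm10, minus strand, GENCODE release M21), Bglap at 88383501 to 88384464 and Bglap2 at 88377736 to 88378699, with a further copy, Bglap3, at 88368616 to 88372743. Their coding sequences are shown because the copies are so alike that short reads can fall on either, which bears on each of their values. Each coding sequence had 285 bases. Capitals mark, in Bglap and Bglap2, the bases at which that pair differs, and in Bglap3 the bases at which it differs from Bglap.
Bglap: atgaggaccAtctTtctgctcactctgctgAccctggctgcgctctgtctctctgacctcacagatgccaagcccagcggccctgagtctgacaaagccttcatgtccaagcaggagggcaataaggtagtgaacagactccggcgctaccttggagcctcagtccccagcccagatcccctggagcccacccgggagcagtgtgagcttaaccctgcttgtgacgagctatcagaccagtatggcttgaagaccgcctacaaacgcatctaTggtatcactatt
Bglap2: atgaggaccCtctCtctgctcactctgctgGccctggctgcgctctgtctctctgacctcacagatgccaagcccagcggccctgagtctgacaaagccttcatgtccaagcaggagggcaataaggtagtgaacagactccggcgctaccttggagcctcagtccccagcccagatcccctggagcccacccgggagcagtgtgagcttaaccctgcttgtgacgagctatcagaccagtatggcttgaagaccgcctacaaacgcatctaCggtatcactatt
Bglap3: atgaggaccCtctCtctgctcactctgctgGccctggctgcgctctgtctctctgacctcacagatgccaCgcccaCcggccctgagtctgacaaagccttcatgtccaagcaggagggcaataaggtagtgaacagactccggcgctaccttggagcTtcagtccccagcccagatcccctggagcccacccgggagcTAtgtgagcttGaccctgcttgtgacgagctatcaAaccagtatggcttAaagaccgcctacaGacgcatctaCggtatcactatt
Bglap and Bglap2 differed at 4 of 285 bases (98.6% identity) and shared an unbroken run of 241 identical bases. Of the 391 windows of 50 bases in the Bglap transcript, 292 (74.7%) were also present letter for letter in the Bglap2 transcript. Bglap3 differed from Bglap at 13 bases (95.4% identity), and 20.5% of the Bglap windows and 37.9% of the Bglap2 windows were in it. How the authors' counting divided reads among the copies was not stated, so the separate values of Bglap and Bglap2 are uncertain.

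Promoter sequence was at hand for 5 of the 9 genes in the RefSeq table (GRCm38.p6), and 3 are shown because their transcripts varied together across libraries to different degrees. Each is the 250 bases before the start in that table. RefSeq and GENCODE place the starts differently, and the Ibsp window runs past the GENCODE start of Ibsp given below. Capitals mark the letters ACCACA, the core of the motif bound by RUNX factors, which include the osteoblast factor Runx2.
Bglap promoter, chr3:88384467-88384716, minus strand: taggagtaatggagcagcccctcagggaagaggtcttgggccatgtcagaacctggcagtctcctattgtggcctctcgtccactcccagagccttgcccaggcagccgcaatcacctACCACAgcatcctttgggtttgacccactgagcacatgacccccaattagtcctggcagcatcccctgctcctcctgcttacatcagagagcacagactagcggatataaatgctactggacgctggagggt
Spp1 promoter, chr5:104434861-104435110, plus strand: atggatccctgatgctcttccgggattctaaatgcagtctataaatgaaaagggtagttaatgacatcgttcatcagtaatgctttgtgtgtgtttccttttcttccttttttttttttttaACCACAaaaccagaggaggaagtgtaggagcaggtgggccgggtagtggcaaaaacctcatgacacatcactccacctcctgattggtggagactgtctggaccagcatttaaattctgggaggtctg
Ibsp promoter, chr5:104299037-104299286, plus strand: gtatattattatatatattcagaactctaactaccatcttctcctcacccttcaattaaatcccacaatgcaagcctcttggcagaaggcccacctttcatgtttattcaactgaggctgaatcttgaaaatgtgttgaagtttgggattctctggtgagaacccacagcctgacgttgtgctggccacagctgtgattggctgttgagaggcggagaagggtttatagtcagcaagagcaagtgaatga
ACCACA or its reverse complement TGTGGT was present in the Bglap window, starting 132 bases before the start, and in the Spp1 window, 128 bases before it. These letters were not in the Ibsp window, and 2 of the 6 windows at hand for these 5 genes held them. Either form was found in 14.0% of all 32851 promoters of the same length. Their presence is a description of these windows, and whether a factor binds there was not tested. The letters TATAAA or TTTATA were in 3 of the 6 windows that the table holds for these 5 genes, the 3 shown, and in 12.4% of all promoters. Spp1 (chromosome 5, 104435118 to 104441050) and Ibsp (chromosome 5, 104299171 to 104311469) lie near each other on the plus strand with Mepe between them, and the same strand of chromosome 10 holds Dcn (chromosome 10, 97479609 to 97518143) and Lum (chromosome 10, 97565128 to 97572703). Col1a1 (chromosome 11, 94936224 to 94953042), Col1a2 (chromosome 6, 4504814 to 4541544) and Sparc (chromosome 11, 55394500 to 55423183) lie apart. Col1a2 and Spp1 each overlap another annotated transcript on the same strand, Gm43921 and Gm42793, whose reads could not be told from theirs.

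The values were read as FPKM, a unit that corrects fragment numbers for gene length and for the size of the library, and they sum to 770789 to 966648 per library, and the read depth behind them is unknown. Dhx16 was at 14.3 to 22.6 FPKM in control and 7.10 to 10.9 FPKM in knockout libraries, with no overlap (log2 difference -0.81, SE 0.16, limma adjusted p = 0.000638, n = 5 each). The sort markers Kit (78.2 to 182 FPKM), Ly6a (126 to 317) and Slamf1 (9.40 to 26.5), which encode c-Kit, Sca-1 and CD150, were present in every library, and Cd48 was at 5.91 to 15.0 FPKM. Libraries WT6 and CKO13 stood apart before any comparison: they had the highest bone matrix levels of their groups in 9 of 9 genes, so results are also given without them.

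Together the 9 transcripts made up between 0.475% (WT3) and 10.9% (WT6) of all FPKM in a library. The share was 2.68% in WT2, 1.33% in WT4 and 2.16% in WT5 among the controls. In the knockout libraries it was 0.959% in CKO7, 0.647% in CKO8, 1.30% in CKO9, 4.17% in CKO12 and 7.36% in CKO13. The median share was 2.16% in control and 1.30% in knockout libraries, and the ranges of both groups lay across each other. In WT6, CKO12 and CKO13 high levels therefore occurred under both genotypes. In bulk RNA a library with fewer cells of a type and one with less RNA per such cell cannot be told apart.

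**Figure D1:**
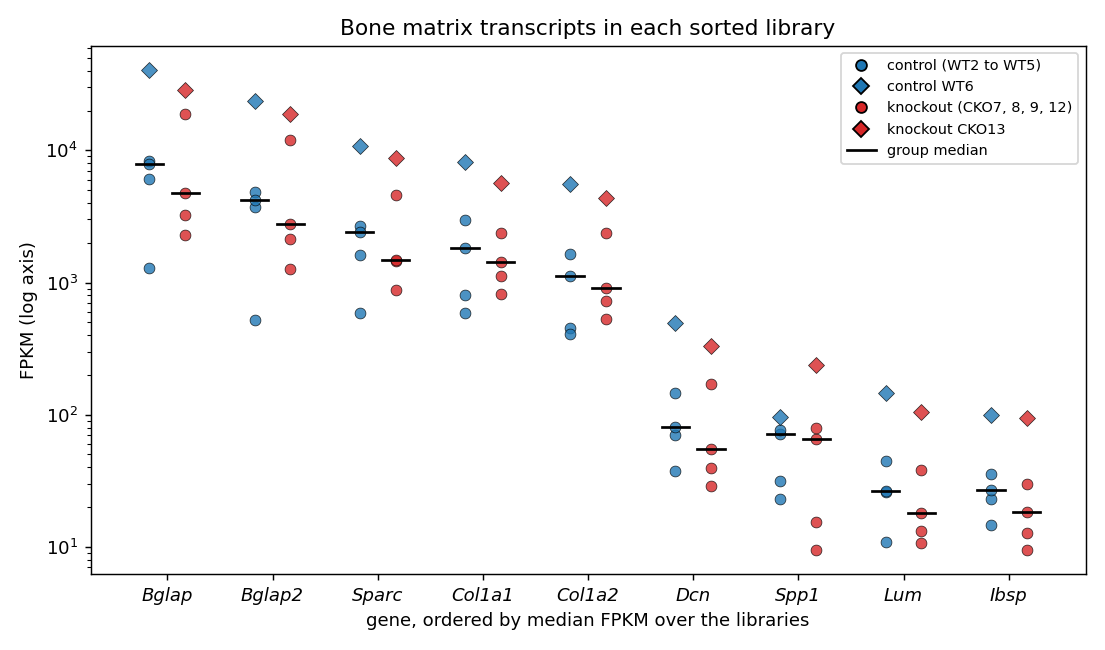
FPKM of each of the 9 bone matrix genes (log axis) in 5 control libraries (blue) and 5 knockout libraries (red). Diamonds are WT6 and CKO13 and black lines are group medians. The points of both genotypes overlap for every gene, and Bglap spans 1282 to 40599.8 FPKM.

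The collagen chains were among the most abundant transcripts. Col1a1, the alpha 1 chain of type I collagen, was at 2956, 804, 592, 1833 and 8197 FPKM in WT2 to WT6, and at 1128, 814, 1441, 2362 and 5670.1 FPKM in CKO7, CKO8, CKO9, CKO12 and CKO13. Col1a2, the alpha 2 chain, was at 1634, 453, 411, 1127 and 5606 FPKM in the controls and 723, 533, 911, 2379 and 4389.8 FPKM in the knockouts, in the same library order. For both chains WT6 was highest, CKO13 second, and the lowest library was the control WT4. The ratio of Col1a1 to Col1a2 stayed within a narrow span, 0.993 in CKO12 to 1.81 in WT2, with a median of 1.54. Across the same libraries each chain itself varied 13.9-fold and 13.6-fold from lowest to highest. Group means were 2876 ± 3119 and 2283 ± 1980 FPKM for Col1a1 in control and knockout, and 1846 ± 2162 and 1787 ± 1628 FPKM for Col1a2 (SD, n = 5 each).

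On the FPKM scale the osteocalcin transcripts had the highest levels and the widest spans. The authors' mean normalized counts had another order. Col1a1 (214498), Col1a2 (137334) and Sparc (58983) were above Bglap (32614) and Bglap2 (24025). The order of levels therefore depends on the correction for length, which was not tested. Bglap was at 8249, 1282, 6119, 7889 and 40599.8 FPKM in WT2 to WT6 and at 3258, 2269.9, 4723, 18724 and 28559 FPKM in CKO7, CKO8, CKO9, CKO12 and CKO13. Bglap2 was at 4857, 518, 3753, 4230.3 and 23753 FPKM in the controls and 2153, 1272.5, 2762, 11922 and 18861 FPKM in the knockouts. WT3 was lowest for both and WT6 highest, a span of 31.7-fold for Bglap and 45.9-fold for Bglap2. By FPKM, Bglap was the 2nd most abundant gene of the whole library in WT6, CKO12 and CKO13, and its lowest rank in any library was 75. Bglap exceeded Bglap2 in 10 of 10 libraries, by 1.51 (CKO7) to 2.48 times (WT3). Because of the shared bases shown in the coding sequences, this ratio depends on how reads were assigned. Bglap3 followed the same libraries at a far lower level, 1.73 (CKO7) to 23.2 FPKM (WT6).

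Sparc, osteonectin, which binds collagen and calcium, was at 2691, 592, 1626, 2426 and 10829 FPKM in WT2 to WT6. In CKO7, CKO8, CKO9, CKO12 and CKO13 it was at 1457, 879.9, 1482, 4584 and 8721 FPKM. Its order over the 10 libraries was the same as that of Bglap and Bglap2 (Spearman 1). Ibsp, a bone sialoprotein that binds mineral and integrins, was far lower, at 35.6, 14.5, 23.2, 27.1 and 99.4 FPKM in the controls and 12.8, 9.49, 18.5, 30.1 and 94.0 FPKM in the knockouts. WT6 and CKO13 were again far above the rest, with the next library at 35.6 FPKM.

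Spp1, osteopontin, departed from the others. It was at 71.3, 23.0, 76.2, 31.7 and 96.2 FPKM in WT2 to WT6 and at 65.1, 15.4, 9.43, 80.0 and 237 FPKM in CKO7, CKO8, CKO9, CKO12 and CKO13. Its highest library was CKO13 and its lowest CKO9, whereas the 8 other genes were highest in the control WT6 and lowest in WT3, WT4, CKO7 or CKO8. The ratio of Spp1 to Ibsp ran from 0.510 in CKO9 to 5.08 in CKO7, a 9.97-fold span, compared with 1.97-fold for Lum over Ibsp. In CKO7, the lowest library for Dcn and Lum, Spp1 was close to its median of 68.2 FPKM.

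The proteoglycan transcripts were at intermediate and low levels. Dcn, decorin, was at 146, 37.2, 70.6, 81.3 and 491 FPKM in WT2 to WT6 and at 29.1, 39.6, 54.9, 171 and 332 FPKM in CKO7, CKO8, CKO9, CKO12 and CKO13. Lum, lumican, was at 44.3, 10.9, 25.9, 26.4 and 147 FPKM in the controls and 10.7, 13.2, 18.2, 38.3 and 105 FPKM in the knockouts. The library order of this pair was close to identical (Spearman 0.99), and Dcn was 2.72 (WT4) to 4.45 times (CKO12) the level of Lum. On the FPKM scale, which corrects for transcript length, the order of medians over libraries was Bglap (7004), Bglap2 (3992), Sparc (2026), Col1a1 (1637), Col1a2 (1019), Dcn (76.0), Spp1 (68.2), Lum (26.2) and Ibsp (25.1). Neighbours in that order kept it in every library only for Bglap over Bglap2 and for Col1a2 over Dcn. Lum exceeded Ibsp in only 6 of 10 libraries, so that pair is not separated.

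Knockout and control libraries overlapped for 9 of 9 genes, where 35.0% of the 6913 genes tested did not overlap. On the log2(FPKM + 1) scale the knockout minus control differences were 0.19 for Col1a2 (SE 0.88), 0.17 for Bglap2 (SE 1.14), 0.03 for Sparc (SE 0.90), -0.03 for Bglap (SE 1.05) and -0.05 for Col1a1 (SE 0.82). They were -0.19 for Spp1 (SE 0.89), -0.41 for Dcn (SE 0.89), -0.43 for Lum (SE 0.82) and -0.44 for Ibsp (SE 0.71). For each gene the difference was smaller than its standard error. The SDs within groups were larger than all of these differences, from 0.87 (Spp1 in control) to 1.96 (Bglap2 in control). All 9 genes entered the limma fit and 0 were called at an adjusted p under 0.05 or had an unadjusted p under 0.05, against 52.7% of tested genes called. This contrast was known when the genes were chosen, so nothing is read from that count. No gene of the 9 was called in the authors' deposited table, against 28.6% of 23405 genes, with log2 fold changes from -0.11 for Lum to 0.84 for Spp1 (SE 0.80). Their sign was opposite to that of the differences above for Spp1, Bglap (0.27), Ibsp (0.07) and Col1a1 (0.02). For the other genes the sign was the same.

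The sign of the differences changed with single libraries. The median over the 9 genes was -0.05, beside -0.12 for all genes tested. Leaving out 1 library moved it from -0.56 (without WT3) to 0.49 (without WT6), and it was -0.53 without CKO13 and 0.07 without both WT6 and CKO13. It was also above 0 without WT2, CKO7, CKO8 or CKO9, and more negative without WT4 or CKO12. Scaling moved it as well, to 0.44 with upper-quartile factors, under which all tested genes had a median of 0.36.

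**Figure D2:**
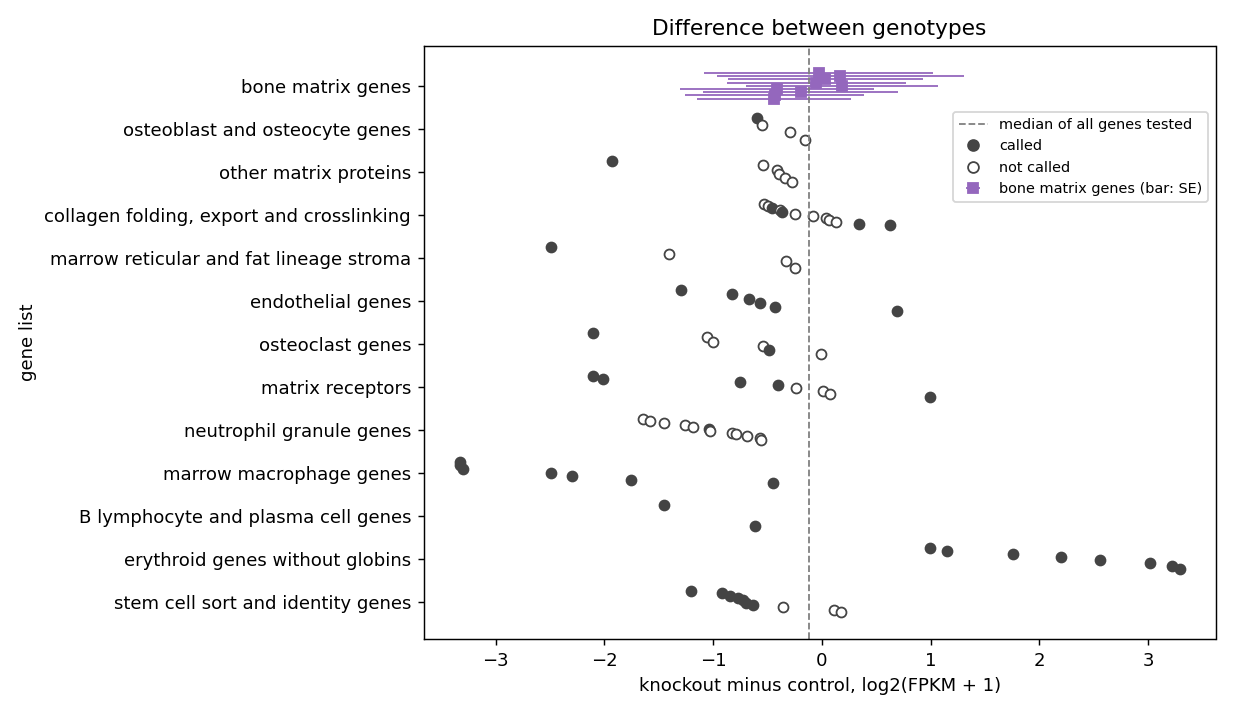
Knockout minus control difference on the log2(FPKM + 1) scale for the bone matrix genes (purple squares, bars are standard errors) and for tested genes of 12 marrow lists (circles, filled where called at an adjusted p under 0.05). The dashed line is the median of all tested genes, -0.12. The bone matrix genes lie between -0.44 and 0.19 with bars that cross 0.

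Covariation across libraries was high, also after the group means were removed. Over the 10 libraries the 36 pairs of these genes had a median Pearson r of 0.92 and a range of 0.591 to 0.995 (Spearman median 0.88). With the group means removed the median r was 0.94. The points are libraries, each with its own sorting, amplification and unknown depth, and the pairs share them. The closest pairs were Bglap with Bglap2 (r = 0.995), Sparc with Bglap (0.990), Dcn with Lum (0.990), Sparc with Bglap2 (0.985) and Col1a1 with Col1a2 (0.984). Reads that fall on either osteocalcin copy can tie the values of Bglap and Bglap2 to each other, and how much they did was not tested. The 8 pairs with Spp1 ran from 0.59 to 0.75, while the 28 pairs without it ran from 0.848 to 0.995.

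WT6 and CKO13 carried part of this likeness. Without them the median r over 8 libraries was 0.79, and the lowest was 0.25, for Col1a1 with Spp1. The pairs Bglap with Bglap2 (0.99), Sparc with Bglap (0.99), Dcn with Lum (0.98) and Col1a1 with Col1a2 (0.96) stayed high, as did Bglap with Lum (0.89). Lower values were seen for Col1a1 with Bglap (0.69), Col1a1 with Dcn (0.73) and Ibsp with Spp1 (0.54). In WT4 the Bglap level was 10.3 times the Col1a1 level, compared with 1.59 times in WT3 and a median of 3.79. Without WT4 the median r over all pairs was 0.95.

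**Figure D3:**
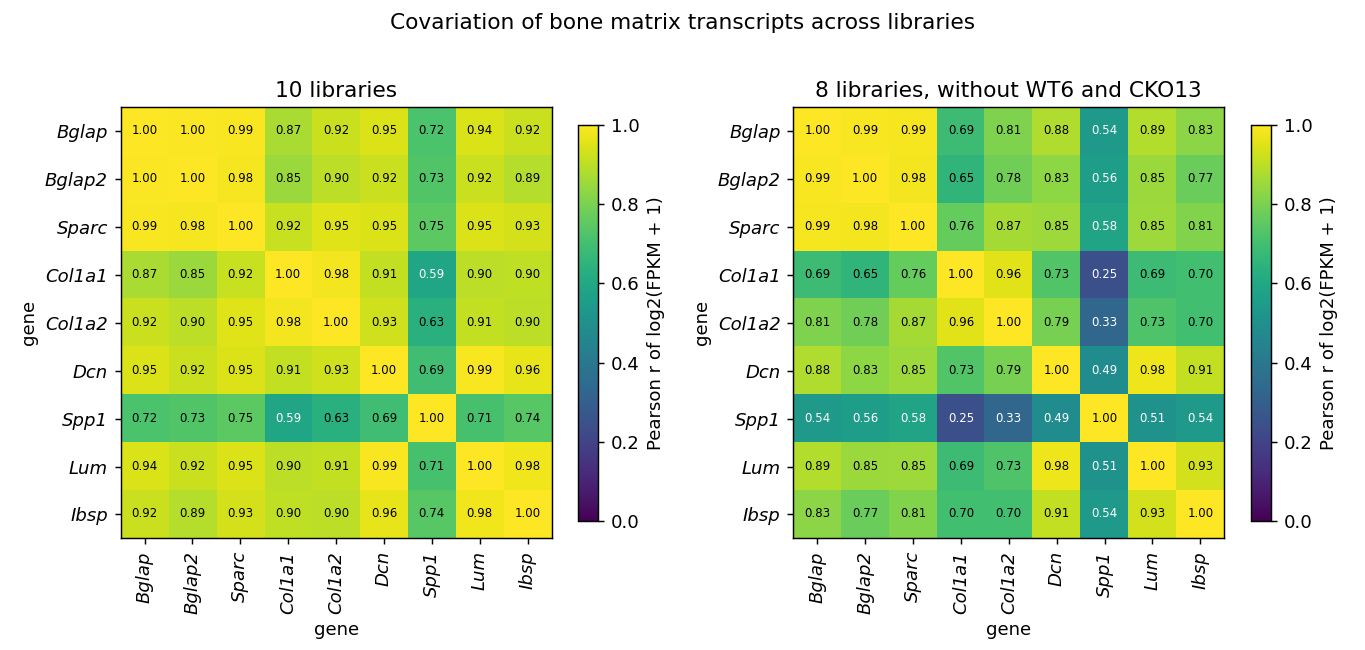
Pearson r of log2(FPKM + 1) between the 9 bone matrix genes over 10 libraries (left) and over 8 libraries without WT6 and CKO13 (right). The Spp1 row is lowest in both panels, with r of 0.59 to 0.75 on the left.

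Other genes were ranked by the Pearson r of their log2(FPKM + 1) values with the mean standardised profile of the 9 genes over the 10 libraries. Of 13998 genes outside the set with a mean of 1 FPKM or more, 98 (0.700%) reached r of 0.9. The closest 10 were Cgref1 (r = 0.98), Cpz (0.98), Serpinf1 (0.98), Car3 (0.98), Slc36a2 (0.98), Ptgis (0.98), Pcolce (0.98), Bgn (0.98), Bglap3 (0.98) and Ifitm5 (0.97). Several are known from bone or matrix: Serpinf1 encodes pigment epithelium-derived factor, Pcolce enhances the trimming of procollagen, Bgn is the proteoglycan biglycan, and Ifitm5 is an osteoblast membrane protein. Cgref1 was lowest in WT3 (7.52 FPKM) and highest in CKO13 (66.7 FPKM), and Serpinf1 ran from 75.7 FPKM in WT3 to 489 FPKM in WT6. Without WT6 and CKO13 the same 10 genes had r of 0.93 to 0.97. Bglap3 shares stretches of sequence with Bglap and Bglap2, so its r may include shared reads, which was not tested.

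Genes of osteoblasts and osteocytes followed the same libraries. Of the 19 genes of that list with a mean of 1 FPKM or more, 11 reached r of 0.9, and the list median was 0.90, beside -0.08 over all 13998 genes. Without WT6 and CKO13 only Ifitm5 (0.93) and Bglap3 (0.93) of that list still reached 0.9. The listed genes were far less abundant than the 9 matrix genes: the list of 26 genes summed to 57.8 FPKM (CKO7) to 415 FPKM (WT6), where the 9 genes summed to 3735 FPKM (WT3) to 89820 FPKM (WT6). The next 2 examples and the osteocyte genes were singled out after their values were seen. Sp7, the osteoblast transcription factor osterix, was at 1.31 (CKO7) to 12.3 FPKM (WT6), and Alpl, the alkaline phosphatase of mineralising cells, at 5.98 to 81.4 FPKM in the same libraries. Osteocyte genes were mixed: Mepe and Sost reached at most 0.79 and 0.09 FPKM in any library, while Dmp1 was at 0.31 (WT3) to 16.6 FPKM (WT6) with an r of 0.90 and Phex at 0.22 to 3.65 FPKM with an r of 0.87. Runx2, which is also expressed outside bone, had an r of 0.56, and 0.89 with the group means removed. Without WT6 and CKO13, r was 0.89 for Sp7, 0.84 for Alpl, 0.68 for Dmp1, 0.63 for Phex and 0.54 for Runx2.

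Transcripts for making collagen followed too, in part. On the list of collagen folding, export and crosslinking, 12 of 26 genes reached r of 0.9 (median 0.84), and among other matrix proteins 5 of 22 did (median 0.70). Without WT6 and CKO13 only Pcolce (0.93), Fkbp10 (0.91) and Mmp2 (0.91) of the first list still reached 0.9. Among other matrix proteins only Bgn (0.94) did so. Serpinh1, the collagen chaperone HSP47, was at 14.8 FPKM in WT3, 149 in WT6 and 178 in CKO13. Col10a1, a collagen of hypertrophic cartilage, and Mgp, an inhibitor of mineralisation, had another pattern: Col10a1 was at 6.53 FPKM in WT4 and 11.2 in CKO7 but at most 0.26 FPKM elsewhere. Mgp was also highest in those 2 libraries, at 55.9 and 29.9 FPKM. These were likewise picked after their values were seen. Marrow reticular stroma (1 of 15, median 0.60) was less alike over the 10 libraries with group differences left in. With the group means removed, r rose for all of those 15 but Il7, Thy1 and Eng. It rose from 0.75 to 0.88 for Cxcl12 and from 0.60 to 0.79 for Lepr, also picked after their values were seen. Without WT6 and CKO13, and with group differences left in, r was 0.55 for Cxcl12 and 0.31 for Lepr. Col2a1, the cartilage collagen with the highest mean on its list, had an r of 0.77, and 0.90 with the group means removed. Its r was 0.56 without WT6 and CKO13.

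**Figure D4:**
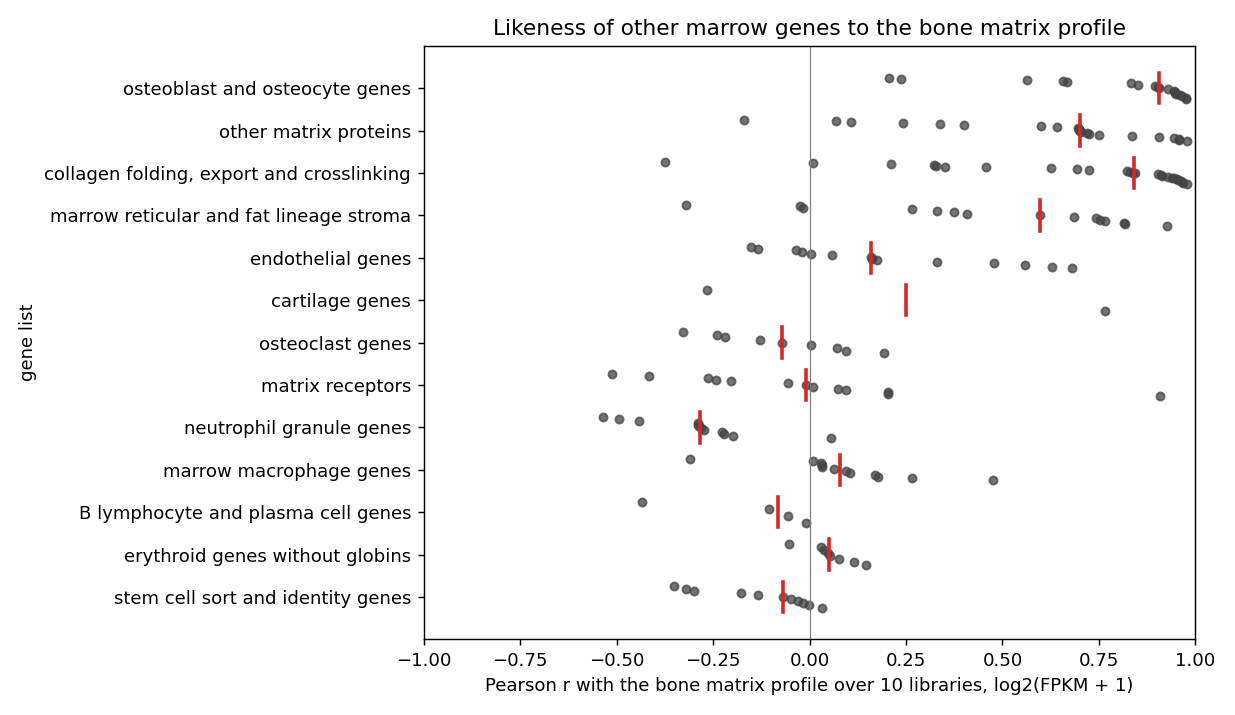
Pearson r of each listed gene with a mean of 1 FPKM or more with the mean bone matrix profile over 10 libraries (grey points), by gene list, with list medians in red. Osteoblast genes (median 0.90) and collagen processing genes (0.84) lie to the right, and neutrophil genes (-0.28) to the left.

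Only some of these bone and matrix genes passed the level filter of 10 FPKM in at least 5 libraries. Of 26 tested over 5 lists, 2 were higher and 5 lower in knockout, beside 21.1% higher and 31.6% lower of all tested genes. Among osteoblast and osteocyte genes 1 of 4 was called: Runx2 fell from 13.8 ± 3.09 to 8.62 ± 1.08 FPKM (log2 -0.60, SE 0.16, limma adjusted p = 0.00439, n = 5). Among other matrix proteins Thbs1, thrombospondin, fell from 34.8 ± 21.4 to 8.18 ± 5.95 FPKM (log2 -1.93, limma adjusted p = 0.0166). Of 12 genes for collagen processing, Ppib, a prolyl isomerase, rose from 164 ± 26.9 to 251 ± 9.55 FPKM (log2 0.63, limma adjusted p = 0.000788), and P4hb also rose. Plod3 (log2 -0.46) and Mia3 (log2 -0.36) fell. Of 4 reticular stroma genes Vcam1, an adhesion molecule also found on macrophages, fell from 40.9 ± 12.7 to 6.40 ± 2.30 FPKM (log2 -2.49, limma adjusted p = 1.22e-05). Runx2 and Vcam1 were below 10 FPKM in every knockout library and entered the test through the controls. Against the profile of the 9 genes these called genes had r of 0.01 for Ppib, 0.32 for P4hb, 0.21 for Plod3, 0.33 for Mia3, 0.27 for Vcam1, 0.40 for Thbs1 and 0.56 for Runx2. With the group means removed, r was 0.14, 0.55, 0.26, 0.40, 0.66, 0.56 and 0.89 in the same order.

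These counts moved with single libraries. The number lower was 3 without CKO8 and 8 without WT4 or CKO13, and the number higher was 1 without WT3, WT5, CKO12 or CKO13. With a filter of 1 FPKM, 78 of these genes were tested, 2 were higher and 17 lower, where 4890 of 13448 genes were lower. Under upper-quartile scaling Mia3 was at 0.10 and neither Runx2, Plod3 nor Mia3 was called.

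Receptors for matrix proteins, many of them carried by blood cells, were the next list. Of 8 tested, 1 rose and 4 fell, near the 52.7% called among all tested genes (21.1% higher and 31.6% lower). Hmmr, a hyaluronan receptor and mitotic protein, rose from 7.21 ± 1.53 to 15.3 ± 3.13 FPKM (log2 0.99, limma adjusted p = 0.000284). Itgb3, a subunit of the integrin that binds osteopontin and bone sialoprotein, fell from 19.9 ± 6.30 to 3.69 ± 0.32 FPKM (log2 -2.10, limma adjusted p = 2.05e-06). Itga6, a laminin receptor subunit, fell from 27.8 ± 4.53 to 6.12 ± 1.01 FPKM (log2 -2.01, limma adjusted p = 5.13e-07). Hmmr, Itgb3 and Itga6 each passed the level filter through 1 group alone. Cd44, which binds hyaluronan and osteopontin, was at 64.5 ± 11.3 and 54.2 ± 7.74 FPKM and did not pass the test. Against the bone matrix profile the 13 receptors with a mean of 1 FPKM or more had a median r of -0.01, and only the collagen receptor Ddr2 reached 0.91. Without WT6 and CKO13 the r of Ddr2 was 0.71.

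Markers of other marrow cells were set beside the bone matrix transcripts, and their part in these results was not tested. Neutrophil granule genes summed to 9004 FPKM (CKO7) to 77209 FPKM (WT3), and WT3, lowest in bone matrix among all libraries, was highest in them. The 12 genes had a median r of -0.28 with the bone matrix profile, and 1 of 12, Prtn3, fell (log2 -1.04, limma adjusted p = 0.0149). Osteoclast genes had a median r of -0.07. Ctsk and Acp5, proteins of bone-resorbing cells picked after their values were seen, were highest in WT3, at 78.9 and 115 FPKM, and second highest in WT6, at 41.5 and 62.4 FPKM. Of 6 tested osteoclast genes 2 fell, Itgb3, named above, and Ostm1 (log2 -0.49, limma adjusted p = 0.00479), a share close to the 31.6% lower among all tested genes.

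Macrophage and erythroid markers separated by genotype, unlike the bone matrix genes. The 12 macrophage genes summed to 206 to 391 FPKM in control and 35.3 to 60.0 FPKM in knockout libraries. The 7 that passed the level filter fell, beside 31.6% lower of all tested genes, among them C1qb (log2 -3.33) and C1qa (log2 -3.33). Of those 7, 5 were below 10 FPKM in every knockout library and passed the filter through the controls alone, so their count is no support of its own. The 8 erythroid genes summed to 120 to 397 FPKM in control and 753 to 1177 FPKM in knockout libraries. Of these, 8 of 8 rose, beside 21.1% higher of all tested genes, led by Car1 (log2 3.29, limma adjusted p = 0.00466). Endothelial genes fell in 5 of 6 tested, among them Pecam1 (log2 -1.30) and Tek (log2 -0.83), and Egfl7 rose (log2 0.69). Over all tested genes 31.6% were lower, and under the other settings 1 to 5 endothelial genes were lower. Most of the 18 listed endothelial genes were too low to be tested. Cdh5 (mean 0.34 FPKM) and Kdr (1.01 FPKM), picked after their values were seen, were among those. Which cells the transcripts of the 6 tested genes came from was not tested, so their falls are not read as fewer endothelial cells. Both B lymphocyte genes tested fell, Ighm (log2 -1.46, below 10 FPKM in every knockout library) and Cd79b (log2 -0.61). The median r with the bone matrix profile was 0.08 for macrophage, 0.05 for erythroid, 0.16 for endothelial and -0.08 for B lymphocyte genes.

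Stem cell genes did not follow the bone matrix profile. Their summed level varied 2.03-fold over the libraries, from 605 FPKM in CKO13 to 1226 FPKM in WT2, where the bone matrix sum varied 24.0-fold. The 11 genes had a median r of -0.07 and none exceeded 0.03. Of 10 tested, 7 fell, beside 31.6% lower of all tested genes, among them Slamf1 at log2 -0.92 (limma adjusted p = 0.000277). Under the other settings 3 to 7 stem cell genes were lower and 0 to 2 higher. Kit, lowest in CKO12 (78.2 FPKM) and CKO13 (91.0 FPKM), was at 150 FPKM in WT6, the library with the most bone matrix RNA.

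**Figure D5:**
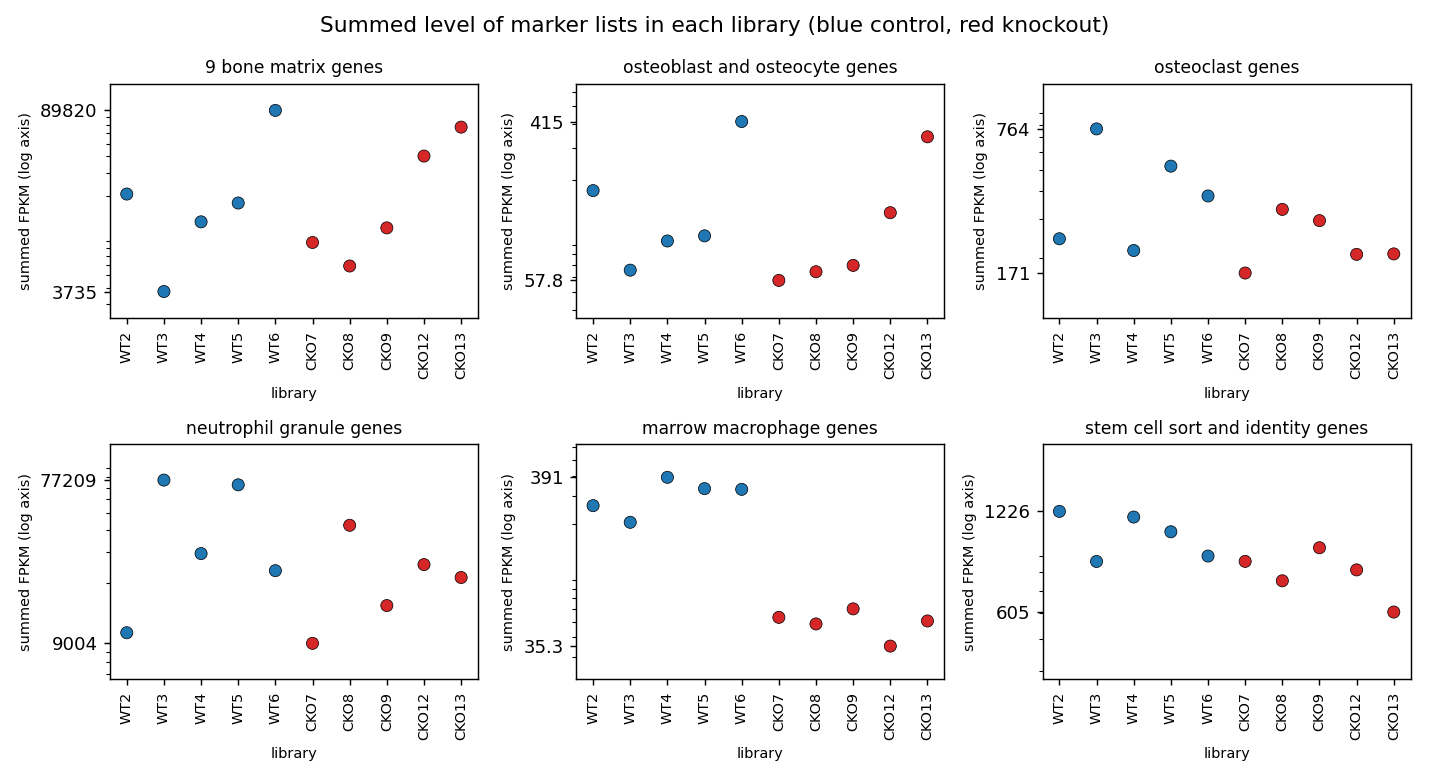
Summed FPKM (log axis, tick labels give the lowest and highest value) of the 9 bone matrix genes and 5 marker lists in each control (blue) and knockout (red) library. Bone matrix and osteoblast sums peak in WT6 and CKO13 under either genotype, whereas the macrophage sum is 206 to 391 FPKM in control and 35.3 to 60.0 FPKM in knockout libraries.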

How the data were processed

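RNA of 5 control and 5 Dhx16 knockout samples of sorted cells was measured. The submitters' processing notes list Bowtie 0.12.9, Cufflinks 2.1.1, HTSeq and mm10, with no roles. The 10 library columns deposited by the authors carry no unit and were taken as FPKM: values are decimal, and the authors' mean count per FPKM rose with exon length (Spearman 0.71 over 6913 genes, not independent replicates). The deposited mean normalized count is a signal from the authors' DESeq2 run, per the file headers. The deposited log2 fold changes with their standard errors, the deposited Wald score and every deposited p-value, raw or adjusted, came from the same run by the authors.

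The 9 genes, the lists and the rules were chosen with earlier results of these data known. The main analysis used FPKM as deposited and limma 3.58.1 (R 4.3.3; trend and robust options) on log2(FPKM + 1), for genes at 10 FPKM or more in at least 5 libraries, with genotype as the only term and Benjamini-Hochberg adjustment over 6913 genes. A gene could pass that filter through 1 group alone. The fit was tested on simulated data. All 52097 identifiers matched GENCODE M21. Named in each list were the called gene with the largest rise and the 2 with the largest falls, or, with none called, the gene with the highest mean; the 10 genes most like the profile were also named. P4hb, genes named for r without WT6 and CKO13, and genes said to be picked after their values were seen fall outside that rule. Vcam1 and Itgb3 are each on 2 lists. A gene named by the rule is not reported here. Depth per library is unknown, so no counting interval is given. Alternatives were other pseudocounts, filters, scalings, library weights and libraries left out.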

Additional observations from a re-analysis of the deposited data

Results flagged for a closer look

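Within each group of 5 libraries, the gap between the most extreme library and its nearest neighbour was divided by the group's range and compared with Dixon's 95% critical value of 0.71. This was done for 82 groups: the 9 genes, the 10 most alike and the other named genes, each in control and knockout. Chance would pass about 1 in 20 groups if values were normally distributed and groups independent, and genes that share a profile are not independent. It was run first on the log2 scale, where 2 groups passed, and then on FPKM, the scale printed above, where 21 passed; both are given. In 19 of those 21 the extreme library was WT6 or CKO13. The 9 genes were chosen with their levels known, and the 10 most alike were chosen for sharing their profile. That count therefore follows from the choice of genes and is no support of its own.

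In control, WT6 stood above the other libraries for Col1a2 (0.765), Sparc (0.795), Bglap (0.823), Bglap2 (0.813), Dcn (0.76), Lum (0.754) and Ibsp (0.751) among the bone matrix genes. Among genes with a like profile it did so for Cpz (0.761), Serpinf1 (0.75), Car3 (0.783), Slc36a2 (0.757), Ptgis (0.714), Pcolce (0.764) and Bglap3 (0.818). In knockout, CKO13 stood above the others for Ibsp (0.756), Thbs1 (0.768), Cgref1 (0.75), Slc36a2 (0.747) and Ifitm5 (0.781).

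In the knockout group, the lowest library for Itgb3, CKO7, was apart on FPKM (0.769) and on log2 (0.784). The highest for Slamf1, CKO9, was apart at 0.8 on FPKM and 0.765 on log2.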

How the results depend on the processing

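No paired analysis was possible because the library columns of both genotypes share no replicate number. The median correlation among the bone matrix genes was 0.91 to 0.95 under every planned setting except the leave-out of WT6 (0.88) and CKO13 (0.90), and 0.79 without both, a setting added after the data were seen. Scaling moved the balance of calls over all genes. Upper-quartile factors over all expressed genes gave 3560 higher and 582 lower (85.9% higher, beside 40.1% as deposited), and median-of-ratios factors over tested genes gave 50.4% higher. After those results were seen, the same factors were also computed over other gene sets: upper quartile over tested genes gave 39.6% higher, and median of ratios over genes above 0 in every library gave 3053 higher and 816 lower (78.9% higher). Over all tested genes the median difference was 0.36, -0.03, -0.13 and 0.25 under these 4 in that order, -0.25 with equal totals (28.3% higher), and that of the bone matrix genes was 0.44, 0.04, -0.07, 0.34 and -0.19. A filter of 1 FPKM gave 4890 lower genes and no filter 4523.

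Bone and matrix genes outside the 9 numbered 4 higher and 2 lower with upper-quartile factors over all expressed genes, 2 lower with median of ratios over genes above 0 in every library, 1 higher and 9 lower with equal totals, and 9 lower with library quality weights. They numbered 17 lower with the filter of 1 and 10 with none, and leaving out single libraries gave 1 to 2 higher and 3 to 8 lower. Matrix receptors numbered 3 higher and 2 lower under both of those scalings and 8 lower with the filter of 1. The lists of other marrow cells and of stem cell genes were also counted together. As deposited, 24 of their 51 tested genes were lower and 9 higher. Over all tested genes 31.6% were lower and 21.1% higher. Those lower numbered 12 and 15 under the same scalings, where 582 and 816 of all 6913 genes were lower. Mia3 turned to 0.10 and 0.000862 under them, and its call was also lost in 7 of 10 leave-outs. Runx2, Plod3, Ostm1, Prtn3 and Cd79b lost their calls under both scalings, and Tek under the first (adjusted p = 0.0840). Fewer genes called lower follows from factors that raise the knockout libraries; which scaling is right was not tested. Unknown depth limits every low value.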
